A study of Citrus sinensis with 48 samples.

Results

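Water stress was followed in leaves of Cleopatra mandarin (Cleo below), a mandarin species used as a rootstock, by comparing 3 water-stressed libraries (WS) with 3 control libraries (CT). These 6 libraries were chosen by their titles out of 48 in the series, and genes were not preselected. Shares given below for all genes are over the 23721 that passed a filter on low counts. The other libraries come from Cleo under 6 further treatments and from Carrizo citrange (Car), a hybrid of sweet orange and trifoliate orange, under the same 8 treatments. Those treatments are control, water stress, high light (HL), heat stress (HS) and their combinations. All 6 Cleo libraries were made from total leaf RNA with a stranded mRNA kit, and they share genotype and tissue, so that the labelled difference between the groups is the water stress alone. The sources used here do not give the severity or length of the stress, how it was imposed, the age of the plants or how many plants went into a library. The labels call the replicates biological without naming plants or pools, so the p-values rest on sample-to-sample spread alone, part of which may be technical. Reads of this mandarin were counted on gene models of sweet orange, a related species, so genes with near-identical copies are uncertain.

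When a leaf loses water, the hormone abscisic acid is made from carotenoid pigments. It binds soluble receptors of the PYR/PYL family, which then block clade A protein phosphatases 2C and so free SnRK2 protein kinases to act on channels and on bZIP transcription factors. Stomata close, carbon fixation slows, and cells make protective proteins and small solutes such as proline and raffinose sugars. In older leaves or under a strong deficit, chlorophyll, starch and protein are broken down and their products exported.

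The 6 libraries held 50397219 to 57471318 counts and 21359 to 21690 genes with a count. All 6 had their closest match within their group: correlations over genes on the log2 scale were at least 0.984 inside a group and at most 0.923 across CT and WS. CT replicate 3 stood apart from the other controls. It differed from them by a chi-square per gene of 89.7 and 126.7, against 10.7 between those 2 and 908 to 1007 between CT and WS. Ribosomal RNA genes took 3.75% of its counts, against 0.662% to 2.06% in the other 5, and it alone of the 6 carries an unexplained mark in its column name. Without it 14765 genes were called in place of 15336, and 14238 were called in both with the same direction. The leaf label was borne out by very high levels of the rubisco small chain and of chlorophyll a-b binding proteins in CT, and the 5 genes of the root endodermis list summed to at most 2.08 TPM (transcripts per 1e6 transcripts) in any of the 6 libraries.

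A level below is a normalised count per 1e6 counts (CPM), given for the 3 CT and then the 3 WS libraries. A change is the fitted log2 fold change of WS against CT ± its standard error, which was calculated back from the test statistic. Calls rest on the quasi-likelihood test of edgeR, with 23721 genes tested and an adjusted p under 0.05, and adjusted p below are from that test. TPM as deposited, which are per transcript length, serve for sums over gene lists and for comparing genes with each other. In whole leaves, fewer cells of a type and less RNA per cell cannot be told apart.

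Most of the leaf's genes moved. Of the genes tested, 7403 were higher (31.2%) and 7933 lower (33.4%) in WS, and 64.7% in all were called. At least 2-fold changes were found in 3065 higher genes (12.9%) and 4528 lower ones (19.1%), and at least 4-fold changes in 1396 (5.89%) and 2290 (9.65%). The 3 WS libraries did not overlap the 3 CT libraries in 65.4% of all genes. The median log2 change was 0 and the median size of a change 0.71, so the counts for gene groups below are to be read against these shares. The genes tested include 1587 with at most 3 counts in both groups, and without them the median was -0.058. The zero of this scale is set by the scaling between libraries and was not measured. Of 1913 long non-coding RNAs tested, 127 were at least 2-fold higher and 378 at least 2-fold lower. Protein-coding genes gave 2845 and 3994 of 20891. Against the 12.9% and 19.1% of all genes, long non-coding RNAs had a smaller share higher and a similar share lower.

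**Figure D1:**
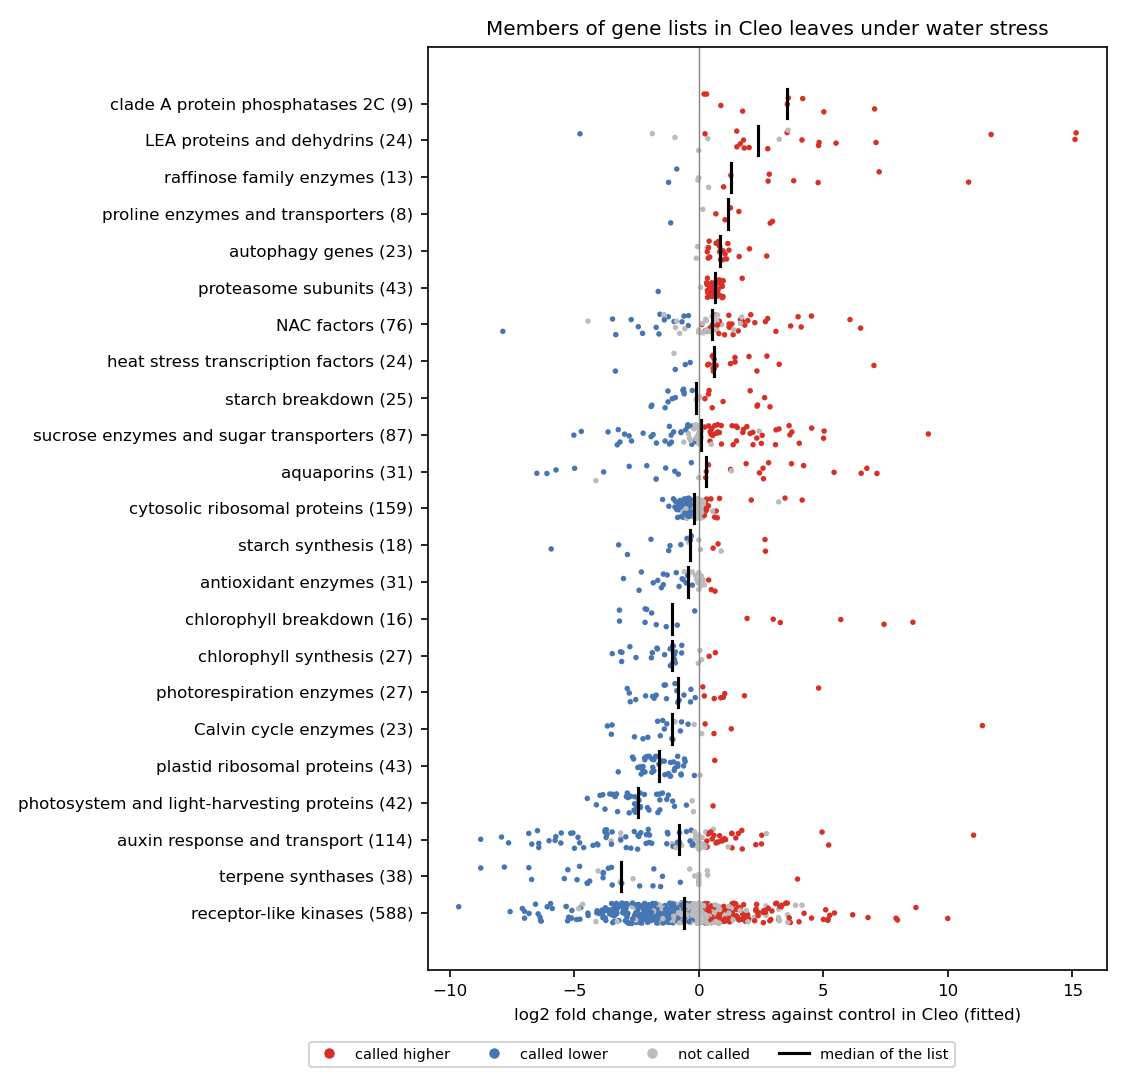
Fitted log2 fold change of WS against CT in Cleo (x axis) for every tested member of 23 gene lists (y axis, members in brackets). Points are genes, red where called higher, blue where called lower and grey where not called, and a black bar marks each list's median. The phosphatase, late embryogenesis abundant, autophagy and proteasome lists lie mostly to the right, and the photosystem, plastid ribosome and terpene synthase lists mostly to the left.

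The abscisic acid pathway responded strongly at its source and at its phosphatases, while only 1 of its 8 receptor genes was called. The gene for 9-cis-epoxycarotenoid dioxygenase 3 (NCED), whose enzyme cuts carotenoids in the step that limits abscisic acid synthesis, was at 9.30, 8.07 and 10.1 CPM in CT and at 351, 402 and 327 CPM in WS. No control library came near a stressed one, and the rise was 39.3-fold (5.30 ± 0.14, adjusted p = 5.9e-30). The other genes of the synthesis list did not follow as a group, with 4 of 12 higher and 6 lower. Zeaxanthin epoxidase (LOC102577984), which acts upstream of NCED, fell from 442, 468 and 438 to 285, 276 and 286 CPM (-0.67 ± 0.06). A second dioxygenase gene (LOC102578070) stayed below 0.4 CPM in all 6 libraries, and that named NCED6 (LOC102612016) was at 0 in all of them.

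Abscisic acid is inactivated by 8'-hydroxylases of the CYP707A family, and 4 of the 7 genes on that list were higher while 1 was lower. CYP707A3 rose most, from 4.20, 5.46 and 3.79 to 28.9, 32.9 and 27.8 CPM (2.73 ± 0.11, adjusted p = 3.0e-24). CYP707A1 rose from between 15.3 and 21.5 to between 44.9 and 48.4 CPM (1.33 ± 0.16). The summed level of the list went from 81.6 to 98.1 TPM in CT to 168 to 183 TPM in WS, whereas that of the synthesis list overlapped between groups (383 to 467 against 432 to 485 TPM).

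Of the 8 receptor genes, only PYR1 (LOC102627725) was called. It fell from 7.84, 7.49 and 9.83 to 2.53, 2.98 and 2.37 CPM (-1.68 ± 0.21, adjusted p = 4.8e-09). PYL9 (LOC102616358) was at 68.7, 66.0 and 79.9 CPM in CT and 77.6, 75.3 and 78.04 CPM in WS (0.11 ± 0.06, adjusted p = 0.11). PYL8 (LOC102607313) lay between 38.6 and 40.4 CPM in CT and between 34.2 and 37.2 CPM in WS (-0.13 ± 0.07, adjusted p = 0.092). PYL8-like (LOC102613559) was at 0.18 on the log2 scale (adjusted p = 0.097). The PYL2, PYL2-like and PYL4 genes had changes of -0.35 to -1.23 that were not called (adjusted p = 0.10 to 0.24). The median of the list was -0.60. Without CT replicate 3, 2 receptors were called higher and 2 lower.

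All 9 clade A protein phosphatase 2C genes, negative regulators of the pathway, were higher, 6 of them at least 2-fold, with a median change of 3.55 against 0 over all genes. Without CT replicate 3, 8 of the 9 were called higher. Phosphatase 2C 24 (LOC102611031) rose from 27.8, 25.1 and 23.7 to 859, 866 and 769 CPM (5.02 ± 0.09, adjusted p = 2.3e-35). The members split by size. The genes for phosphatases 56-like (LOC102623733), 75 (LOC102630401) and 77 (LOC102624980) rose by 3.55 to 4.17 on the log2 scale, while phosphatase 2C 16 (LOC102616426) went from 190 to 225 CPM in CT to 225 to 257 CPM in WS (0.21 ± 0.06). A second gene described as phosphatase 2C 75 (LOC102629241) was nearly silent in CT, at 0 to 0.193 CPM, and at 13.03 to 14.8 CPM in WS. Summed over the list, the level went from 318, 329 and 246 TPM to 1520, 1643 and 1498 TPM.

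The SnRK2 kinases moved both ways, with 5 of 7 called higher and 2 lower. SAPK2 (LOC102623202) fell from 308, 322 and 302 to 61.8, 58.5 and 63.0 CPM (-2.35 ± 0.10). SRK2A (LOC102609931) rose from 24.7 to 27.6 CPM to 58.7 to 64.8 CPM (1.25 ± 0.08). SRK2E (LOC102612674), whose Arabidopsis counterpart closes stomata, fell slightly, from 73.2, 75.1 and 69.8 to 58.0, 61.7 and 64.0 CPM (-0.25 ± 0.07, adjusted p = 0.0022). Without CT replicate 3, 3 kinases were called higher and 2 lower. In the list of bZIP factors downstream and related genes, 7 of 10 were higher and 2 lower. The list includes the ninja-family proteins AFP2 (LOC102613772, 2.34) and AFP3-like (LOC102608146, -0.53). An ABI5-like 2 gene (LOC102608145) was lower (-3.38). TRAB1 (LOC102618173) went from 202, 205 and 209 to 398, 398 and 399 CPM (0.95 ± 0.05), and ABI5-like 5 (LOC102608792) from 120, 135 and 87.2 to 374, 405 and 362 CPM (1.74 ± 0.10).

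**Figure D2:**
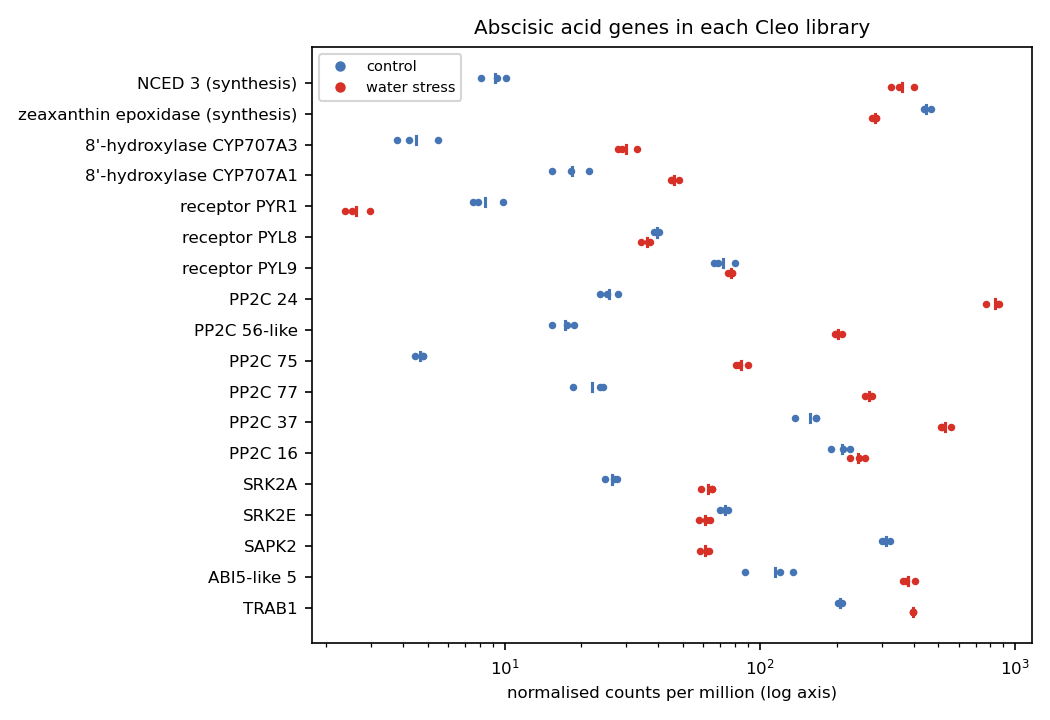
Normalised CPM (x axis, log scale) of 18 abscisic acid genes (y axis) in each control (blue) and water-stressed (red) library of Cleo, with a vertical bar at each mean of 3. NCED 3 and the phosphatases 24, 56-like, 75 and 77 are far apart between groups, whereas the receptors PYL8 and PYL9 and phosphatase 16 lie close together.

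Protective proteins were among the genes with the largest rises. Late embryogenesis abundant (LEA) proteins and dehydrins are hydrophilic proteins that shield membranes and enzymes during drying, and 17 of the 24 tested were higher and 1 lower. Their median change was 2.40, or 1.80 with genes of at most 3 counts set to that floor. The summed level of the list rose from 3124, 2962 and 2939 TPM to 24826, 24378 and 23937 TPM. LEA46-like (LOC102628020) went from 1.47, 1.37 and 1.71 CPM to 5431, 5070 and 5055 CPM (11.74 ± 0.53). That was the largest rise among called, described genes whose groups did not overlap and whose mean log2 CPM was 3 or more. Dehydrin (DHN) was already present at 292, 281 and 279 CPM and reached 3409, 3322 and 3215 CPM (3.55 ± 0.09, adjusted p = 5.5e-30). Lea14-A (LOC102617074) and the low-temperature-induced 65 kDa protein (LOC102609060) rose by 5.51 ± 0.16 and 4.14 ± 0.09. The salt stress-induced hydrophobic peptide ESI3 (LOC102622890), a small membrane protein, went from 1.29 to 2.23 CPM to 448 to 539 CPM (8.23 ± 0.17).

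Some genes had hardly a read in the control leaves. In 33 genes the 3 CT libraries together held at most 3 counts while every WS library had at least 1 CPM, and 26 of those had 0 counts in CT. The highest were the LEA protein ECP63 (LOC102618632), at 96.5, 87.4 and 83.5 CPM in WS, and an 11 kDa LEA protein (LOC102627731), at 96.7, 81.2 and 81.3 CPM. With a floor of 3 counts over the group, both were at least 4465-fold higher. Both were also seen under heat stress without water stress, at means of 0.602 and 6.43 CPM. A gene for branched-chain amino acid aminotransferase 2 (LOC102614136), which starts the breakdown of leucine, isoleucine and valine, had 0 counts in CT and 11.8, 9.42 and 10.9 CPM in WS (at least 554-fold higher).

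The reverse held for 12 genes, of which 8 had 0 counts in WS. CYP734A1 (LOC102613265), which inactivates brassinosteroid hormones, was at 8.48, 8.52 and 3.45 CPM in CT and at 0 in WS (at least 346-fold lower). Growth-regulating factor 10-like (LOC102619103), of a family that promotes cell proliferation in young leaves, was at 4.86, 5.42 and 4.90 CPM in CT and at 0 in WS (at least 251-fold lower). CYP82C4-like (LOC107176171) and a putative anthocyanidin reductase (LOC102627270) were next in CPM, at 3.13 to 3.55 CPM and 2.03 to 2.85 CPM in CT.

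Genes for compatible solutes rose too. Of the 13 raffinose family genes, 8 were higher and 2 lower. Stachyose synthase (LOC102611645), which adds a galactose unit to raffinose, rose from 1.95, 1.596 and 2.44 to 297, 324 and 283 CPM (7.24 ± 0.19, adjusted p = 1.0e-29). A galactinol-sucrose galactosyltransferase (LOC102622912), of the enzymes that make raffinose, went from between 234.3 and 250.5 CPM to between 1668 and 1787 CPM (2.83 ± 0.07). The list's summed level rose from 323 to 411 TPM to 3106 to 3533 TPM.

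For proline, 6 of 8 genes were higher and 1 lower. The synthesis enzyme delta-1-pyrroline-5-carboxylate synthase-like (LOC102619471) rose from 811, 845 and 861 to 1847, 2147 and 2083 CPM (1.27 ± 0.09), and proline transporter 1 (LOC102618732) from 33.2, 30.6 and 34.02 to 249, 256 and 254 CPM (2.96 ± 0.06). Proline dehydrogenase 2 (LOC102606965), which degrades proline, was at 11.7 to 13.7 CPM in CT and 12.1 to 17.2 CPM in WS (0.16 ± 0.13, adjusted p = 0.30), and the groups overlapped. Trehalose genes also changed, 9 of 15 higher and 5 lower. The genes for trehalose-phosphate synthases went in opposite directions, LOC102615793 rising by 3.98 ± 0.12 and LOC102611843 falling by 2.63 on the log2 scale, from 341, 347 and 268 to 48.5, 55.5 and 50.2 CPM.

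Aquaporins, the channels that let water cross membranes, split into a rising and a falling set. Of 31 tested, 15 were higher, 12 of them at least 2-fold, and 12 lower, 9 of them at least 2-fold. Probable PIP2-8 (LOC102624436), a plasma membrane channel, fell from 127, 123 and 150 to 2.27, 2.76 and 2.48 CPM (-5.73 ± 0.15, adjusted p = 4.1e-30). NIP2-1-like (LOC102612686), of a family that carries silicic acid and other small solutes, fell from 66.0, 66.3 and 79.6 to 1.99, 2.13 and 2.54 CPM (-4.99 ± 0.13). Of the other set, PIP2-2-like (LOC102608729) rose from 27.5, 26.9 and 31.5 to 364, 398 and 373 CPM (3.72 ± 0.09), and a second PIP2-2-like gene (LOC102609769) from 80.8, 76.2 and 91.1 to 448, 449 and 446 CPM (2.44 ± 0.08). These 2 genes carry the same description and may share reads. In sum the family went from 2330, 2184 and 2281 TPM to 3523, 3747 and 3514 TPM.

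Genes for the photosynthetic machinery fell as a block. Of 42 nuclear-encoded photosystem and light-harvesting genes, 39 were lower, 37 of them at least 2-fold, and 1 was higher, with a median change of -2.45. Their summed level dropped from 61333, 59936 and 72974 TPM to 13922, 13393 and 14321 TPM. CP24 (LOC102609463), a minor antenna protein of photosystem II, fell from 1669, 1617 and 2064 to 130, 127 and 135 CPM (-3.77 ± 0.10, adjusted p = 1.2e-30). Oxygen-evolving enhancer 3-2 (LOC102620317), a subunit of the complex that splits water, fell from 504 to 631 CPM to 29.6 to 33.6 CPM (-4.11 ± 0.12). A list of 4 photoprotective proteins, which shares the photosystem II 22 kDa protein (LOC102630024, lower) with the photosystem list, had 2 higher and 2 lower. Early light-induced protein 1 (LOC102578039), which binds free chlorophyll, rose from 1076, 1063 and 1286 to 3019, 2622 and 2838 CPM (1.31 ± 0.11). Violaxanthin de-epoxidase (VDE) fell by 0.95 on the log2 scale.

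Carbon fixation followed. In the Calvin cycle 16 of 23 genes were lower and 4 higher, and the summed level went from 39095, 39471 and 38679 TPM to 7748, 7985 and 7945 TPM. The rubisco small chain (LOC102612988), part of the enzyme that fixes carbon dioxide, fell from 11460, 10890 and 13130 to 1062, 1031 and 1078 CPM, 11.2-fold (-3.48 ± 0.15, adjusted p = 1.4e-22). Rubisco activase (LOC102627294), which keeps rubisco working, fell from 7914, 8125 and 8031 to 1898, 2006 and 1918 CPM (-2.05 ± 0.12). Chloroplast fructose-1,6-bisphosphatase (LOC102628345) fell by 3.51 on the log2 scale. Of 27 photorespiration genes, 19 were lower and 8 higher. Mitochondrial serine hydroxymethyltransferase (LOC102622701) fell from between 1190 and 1303 CPM to between 156 and 185 CPM (-2.87 ± 0.08). Against this, a glycolate oxidase-type gene (LOC102609145) rose from 18.9, 19.5 and 22.5 to 574, 581 and 556 CPM (4.81 ± 0.07, adjusted p = 1.1e-38). Of the 43 plastid ribosomal protein genes, 41 were lower and 1 higher, with a median of -1.60.

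Chlorophyll synthesis genes mostly fell, and breakdown genes were split between lower members and steeply rising ones. In synthesis 22 of 27 genes were lower and 2 higher, with a median of -1.06. Protochlorophyllide reductase (LOC102614959), the light-dependent step, fell from 807, 813 and 899 to 99.8, 96.03 and 101 CPM (-3.09 ± 0.07, adjusted p = 1.1e-32). In breakdown 6 of 16 genes were higher and 10 lower, with a median of -1.08, while the summed level rose from 995, 1018 and 1033 TPM to 2556, 2592 and 2561 TPM. The members that rose include STAY-GREEN (LOC102625350), which takes the magnesium from chlorophyll, from 15.8, 14.96 and 17.9 to 869, 827 and 836 CPM (5.70 ± 0.08, adjusted p = 2.7e-38). Pheophytinase (LOC102610088), the next enzyme, rose from 58.1 to 64.8 CPM to 593 to 618 CPM (3.27 ± 0.07). Pheophorbide a oxygenase (LOC102625487), which opens the ring, rose from 148, 151 and 159 to 1177, 1227 and 1234 CPM (2.99 ± 0.11). The chlorophyll b reductase NYC1 (LOC102617189) rose by 1.94 ± 0.06. In the carotenoid list 7 of 30 genes were higher and 14 lower, while the sum rose from 2397 to 2706 TPM to 3526 to 3790 TPM. Beta-carotene hydroxylase (LOC102578021), which makes zeaxanthin, rose from 208, 207 and 228 to 1739, 1516 and 1447 CPM (2.87 ± 0.08).

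**Figure D3:**
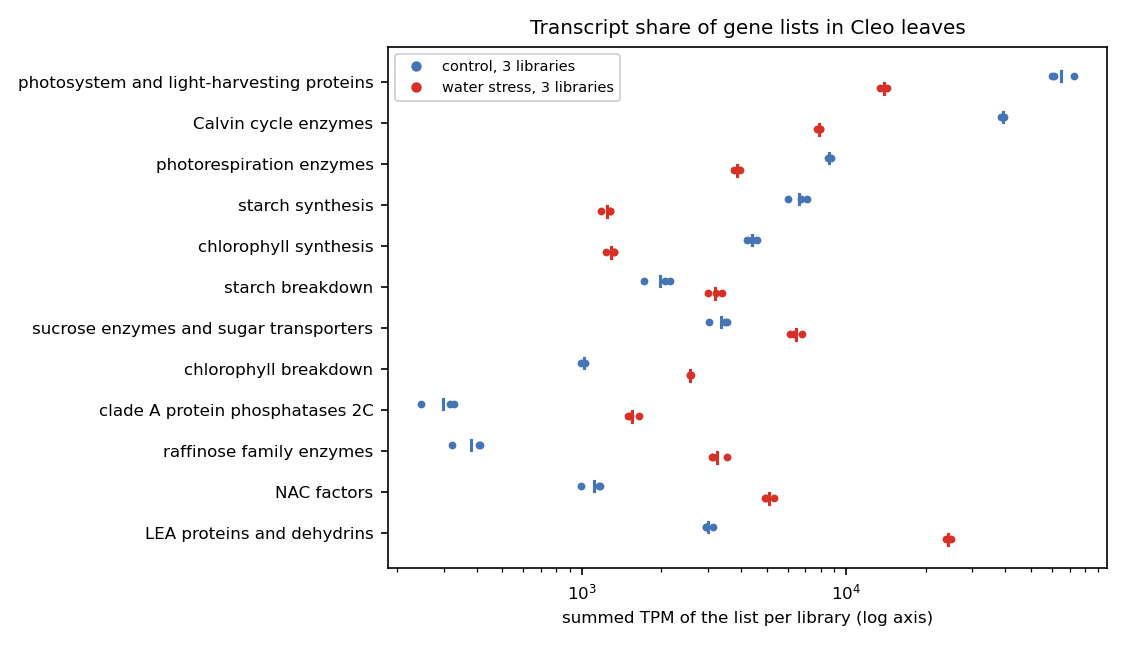
Summed TPM (x axis, log scale) of 12 gene lists (y axis) in each of 3 control (blue) and 3 water-stressed (red) Cleo libraries, with a vertical bar at each group mean. The photosystem, Calvin cycle and starch synthesis lists fell, the phosphatase, raffinose, NAC and late embryogenesis abundant lists rose, and no list shown has overlapping groups.

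Summed levels fell for starch synthesis and rose for starch breakdown, while in both lists more genes were lower than higher. In synthesis 10 of 18 genes were lower and 4 higher, and the sum fell from 6778, 7131 and 6030 TPM to 1180, 1275 and 1274 TPM. The small subunit of ADP-glucose pyrophosphorylase (LOC102625409), the committed step, fell from 867, 864 and 868 to 11.99, 13.3 and 17.4 CPM, 60.8-fold (-5.93 ± 0.12, adjusted p = 1.7e-33). Granule-bound starch synthase 1 (LOC102577951), which makes amylose, fell from 5858, 6047 and 5886 to 632, 644 and 636 CPM (-3.22 ± 0.09). A pair of starch synthase 1 genes (LOC102630022 and LOC102610465), near each other in value and possibly sharing reads, rose by 2.68 ± 0.08 and 2.66 ± 0.08. In breakdown 10 of 25 genes were higher and 12 lower, with a sum of 1713 to 2149 TPM in CT and 2994 to 3405 TPM in WS. Beta-amylase 1 (LOC102626673), which releases maltose, rose from 555, 551 and 520 to 2616, 2941 and 2804 CPM (2.36 ± 0.08). Alpha-amylase 3 (LOC102577968) rose by 2.86 ± 0.10.

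Among sucrose enzymes and sugar transporters, 40 of 87 were higher and 27 lower. An acid beta-fructofuranosidase (LOC102621775), an invertase that cuts sucrose, rose from 113, 111 and 136 to 1868, 2099 and 1941 CPM (4.04 ± 0.09, adjusted p = 6.1e-33). Sucrose-phosphate synthase 4 (LOC102624502), which makes sucrose, rose from between 211 and 225 CPM to between 1255 and 1275 CPM (2.55 ± 0.07). Inositol transporter 2 (LOC102620399) went from 136, 133 and 144 to 1149, 1249 and 1149 CPM (3.10 ± 0.09).

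Autophagy and proteasome genes rose, whereas amino acid breakdown and protease genes were split. The list for branched-chain, lysine and tyrosine breakdown had 13 of 39 genes higher and 15 lower, against 31.2% and 33.4% of all genes. Its median change was 0. The members with the lowest p values rose by unequal amounts. Homogentisate 1,2-dioxygenase (LOC102613255) and 4-hydroxyphenylpyruvate dioxygenase (LOC102618830) rose by 1.21 and 2.00 on the log2 scale, and the steepest rises were in other members. Alpha-aminoadipic semialdehyde synthase (LOC102608315), the first enzyme of lysine breakdown, rose from 6.52, 5.65 and 6.32 to 299, 305 and 296 CPM (5.60 ± 0.09, adjusted p = 3.7e-37). Another branched-chain aminotransferase 2 gene (LOC102614611) rose from 13.3, 11.5 and 11.9 to 573, 573 and 574 CPM (5.55 ± 0.12). Amino acid transporters leaned down by count, 35 of 70 lower and 20 higher, while their sum rose from 1031 to 1148 TPM to 2066 to 2300 TPM. Amino acid permease 7 (LOC102628128) nevertheless rose from 12.1, 11.6 and 11.3 to 792, 831 and 798 CPM (6.11 ± 0.06, adjusted p = 1.6e-43).

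Of 23 autophagy genes, 20 were higher and none lower, with a median change of 0.84. ATG8i (LOC102618951) and ATG8f (LOC102611739), ubiquitin-like proteins that coat the growing autophagosome, rose by 2.73 ± 0.12 and 2.04 ± 0.11. The proteasome, which degrades ubiquitin-tagged proteins, rose as a set by small amounts, 41 of 43 subunits higher but 1 of them at least 2-fold, with a median of 0.64. Subunit alpha type-6 (LOC102610983) went from 23.9, 21.5 and 25.7 to 45.8, 42.6 and 48.3 CPM (0.94 ± 0.07). A gene described as a non-ATPase regulatory subunit of the 26S particle (LOC102617699) fell instead, from 1326, 1431 and 1481 to 450, 456 and 464 CPM (-1.63 ± 0.09). Vacuolar-processing enzyme (VPE), a cysteine protease of the vacuole, rose from 87.5, 86.2 and 109 to 2115, 2533 and 2357 CPM (4.63 ± 0.12). Its list of proteases had 35 of 129 genes higher and 64 lower, while the sum rose from 7471 to 7830 TPM to 12914 to 14231 TPM. CDR1-like aspartic proteinase (LOC102619023) fell from 241, 254 and 244 to 0.482, 0.754 and 1.13 CPM (-8.27 ± 0.20). That was the largest fall among called, described genes whose groups did not overlap and whose mean log2 CPM was 3 or more.

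Cytosolic ribosomal proteins changed little, 67 of 159 lower and 19 higher with a median of -0.18, and without CT replicate 3 the split was 47 lower and 31 higher with a median of -0.047.

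Heat shock protein genes leaned higher, and genes of endoplasmic reticulum folding and antioxidant enzymes lower. Of 61 heat shock proteins, 36 were higher and 7 lower. A heat shock 70 kDa protein (LOC102625888) rose from 3.13, 3.36 and 2.42 to 191, 157 and 153 CPM (5.81 ± 0.13, adjusted p = 3.6e-32). Of 24 heat stress transcription factors, 19 were higher and 4 lower (19 and 2 without CT replicate 3), among them B-2a (LOC102626069), from 67.6, 65.6 and 68.9 to 284, 275 and 260 CPM (2.02 ± 0.06). Of 43 genes for folding in the endoplasmic reticulum, 22 were lower and 12 higher, with a median of -0.26. In the antioxidant list 16 of 31 genes were lower and 3 higher (15 and 5 without CT replicate 3). Catalase-like (LOC102615999), which removes hydrogen peroxide in peroxisomes, fell from 1702, 1695 and 1739 to 326, 369 and 343 CPM (-2.31 ± 0.08). Chloroplast peroxiredoxin Q (LOC102620446) and Cu-Zn superoxide dismutase (LOC102626642) fell by 3.02 and by 2.40 on the log2 scale.

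Auxin genes leaned lower, and genes of wall loosening were lower at a share near that of all genes. In the auxin list 59 of 114 genes were lower, 49 of them at least 2-fold, and 29 higher, while the summed level rose from 5931 to 6000.4 TPM to 7018 to 7371 TPM. Auxin response factor 4 (LOC102613600) fell from 141, 142 and 138 to 3.83, 4.63 and 3.46 CPM (-5.15 ± 0.10, adjusted p = 7.3e-35), and the auxin-binding protein ABP19a (LOC102627199) from 394, 408 and 452 to 4.28, 5.67 and 4.66 CPM (-6.43 ± 0.15). Among genes of wall loosening and pectin, 61 of 161 were lower and 35 higher, against 33.4% and 31.2% of all genes. The median of -0.30 became 0.05 with genes of at most 3 counts at the floor, and lay between -0.14 and -0.035 with any 1 CT library left out (-0.035 without CT replicate 3). Expansin-A4 (LOC102620571), which loosens walls during expansion, fell from 53.5 to 58.5 CPM to 1.08 to 1.83 CPM (-5.27 ± 0.17). A xyloglucan endotransglucosylase (LOC102612213) fell from 1779, 1652 and 1849 to 184, 179 and 194 CPM (-3.24 ± 0.09). For cellulose and xylan synthesis the counts were 49 lower and 21 higher of 99.

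Brassinosteroid genes went the other way, 8 of 17 higher and 4 lower. CYP90B1 (LOC102623486) and CYP90A1-like (LOC102608450), enzymes of brassinosteroid synthesis, rose by 2.38 ± 0.12 and 1.74 ± 0.06, beside the loss of the inactivating CYP734A1 described above. In the ethylene list the counts were near even, 12 higher and 11 lower of 36, and a synthase gene (LOC102621630), chosen after its values were seen, went from 0 counts in CT to 4.58, 10.3 and 7.66 CPM in WS. It is an ACC synthase, the enzyme that makes the precursor of ethylene. Of gibberellin genes 15 of 38 were lower and 7 higher, while the sum rose from 342 to 378 TPM to 463 to 487 TPM. The receptor GID1B (LOC102618248) rose by 1.63 ± 0.06 and the repressor GAI (LOC102608614) fell by 2.86 on the log2 scale.

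Markers of other cell types are set here against the shares of all genes, 31.2% higher and 33.4% lower. Among markers of dividing cells 40 of 131 were higher and 44 lower, near those shares. Their sums were 4641 to 4921 TPM in CT and 5916 to 6397 TPM in WS. The B-type kinase CDKB1-2 (LOC102622283), made in dividing cells, rose from 2.51, 2.12 and 2.42 to 12.1, 10.2 and 11.03 CPM (2.24 ± 0.11), while cyclin-D3-2 (LOC102628473) fell by 2.17 on the log2 scale. Phloem and xylem markers had 5 of 18 higher and 8 lower, with overlapping sums (297 to 393 TPM in CT, 366 to 382 TPM in WS). Guard cell markers had 10 of 36 higher and 3 lower, with overlapping sums (174 to 261 TPM in CT, 261 to 308 TPM in WS). Of these 36, 13 had at most 3 counts in both groups. The cuticle and wax list, an epidermal set, had 38 of 152 higher and 58 lower, and 28 had at most 3 counts in both groups. Its sum rose from 6915 to 11598 TPM to 18329 to 19735 TPM. The part of changed cell proportions in the results above was not tested.

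Transcription factors of several families were among the steepest changes. Of 76 NAC factors, 32 were higher and 16 lower, and their sum rose from 1165, 1175 and 994 TPM to 4978, 5340 and 4944 TPM. NAC72 (LOC102612201), whose Arabidopsis counterpart RD26 responds to drought and abscisic acid, was among them. It went from 51.2, 47.5 and 44.5 to 3136, 3369 and 3142 CPM, 67.3-fold (6.07 ± 0.09, adjusted p = 1.1e-38). NAC29 (LOC102608057), related to an Arabidopsis factor of leaf senescence, rose from 19.2, 16.8 and 22.1 to 348, 325 and 332 CPM (4.11 ± 0.10). The homeobox factors ATHB-7 (LOC102614503) and ATHB-12-like (LOC102628407), which respond to abscisic acid in Arabidopsis, rose by 2.73 ± 0.07 and 2.87 ± 0.13. Their family of 37 had 9 higher and 19 lower, while its sum rose from 902 to 1149 TPM to 1614 to 1671 TPM. In the ERF and DREB family 31 of 102 were higher and 36 lower. For WRKY factors the counts were 22 higher and 18 lower of 54, with WRKY40 (LOC102616268), a regulator of defence and abscisic acid genes, at 5.95, 4.69 and 6.06 CPM in CT and 58.0, 57.3 and 56.5 CPM in WS (3.36 ± 0.11).

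Clock genes shifted as well, 13 of 21 higher and 7 lower. REVEILLE 1 (LOC102630458), a morning factor, rose from 85.5, 83.8 and 83.8 to 462, 456 and 469 CPM (2.45 ± 0.06). GIGANTEA (LOC102626780) rose from 236 to 265 CPM to 918 to 937 CPM (1.87 ± 0.07), and the pseudo-response regulator APRR9 (LOC102622921) fell from 788, 832 and 644 to 101, 108 and 104 CPM (-2.86 ± 0.13). The time of day of sampling is not given in the sources used here, and whether it was the same for both groups cannot be read from these files.

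Terpene and flavonoid genes leaned lower. Terpene synthases, which make the volatile oils of citrus, had 24 of 38 genes lower, 23 of them at least 2-fold, and 1 higher. Their median of -3.13 was -1.81 with genes of at most 3 counts at the floor, and their sum went from 307, 303 and 292 TPM to 44.1, 38.7 and 45.0 TPM. A germacrene D synthase (LOC102606641), which makes a sesquiterpene, fell from 46.1, 51.4 and 54.8 to 3.92, 3.34 and 4.96 CPM (-3.63 ± 0.18). In the flavonoid list 36 of 75 genes were lower and 18 higher. Flavonoid 3'-monooxygenase (LOC102630520), which sets the hydroxyl pattern of flavonoids, fell from 86.1, 82.2 and 83.6 to 1.81, 1.96 and 2.48 CPM (-5.33 ± 0.15). Receptor-like kinases had 265 of 588 genes lower and 114 higher, against 33.4% and 31.2% of all genes. Disease resistance proteins had 154 of 527 lower and 76 higher, both shares below those of all genes. UDP-glycosyltransferases, which attach sugars to hormones and phenolics, had 62 of 142 higher and 48 lower. Those described as 76B1-like (LOC102606711) and 76B1 (LOC102616228) rose from at most 0.491 CPM to 385 to 435 CPM (10.38 ± 0.22) and from 5.05 to 6.70 CPM to 356 to 372 CPM (5.90 ± 0.13). In the list of salicylate and pathogenesis genes 41 of 117 were higher and 44 lower, while the sum rose from 4097 to 4455 TPM to 27334 to 28323 TPM. PAD4 (LOC102609592), a regulator of salicylate defence, rose from 4.31, 3.30 and 5.29 to 174, 156 and 161 CPM (5.26 ± 0.13).

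In TPM, the largest single gains were in a lipid-transfer protein-like gene and in LEA46-like. The lipid-transfer protein (LOC102624990), of a family of small secreted proteins that bind lipids, went from a mean of 370 ± 128 to 11023 ± 728 TPM (SD, n = 3). LEA46-like reached 9271 ± 260 TPM. Genes described as salicylic acid-binding protein 2-like (LOC102613996, LOC102612910 and LOC102613503) and an ethylene-induced esterase (LOC102578055), relatives that can share reads, rose together from means of 155 to 264 TPM to 5691 to 8614 TPM. The split of reads among these 4 is uncertain. The largest losses were in the rubisco small chain, from 14768 ± 260 to 1259 ± 19.7 TPM, and in an inhibitor of trypsin and hageman factor (LOC102620812), from 11433 ± 4852 to 1734 ± 407 TPM. The latter's control mean rests partly on CT replicate 3, which had 6034 CPM against 2862 and 2467 CPM in the other controls and 506, 510 and 750 CPM in WS.

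The response to water stress was compared between the genotypes by testing the difference of the log2 changes, Cleo minus Car. In Car, 2 of 3 control libraries and none of the water-stressed ones carry the column mark described for CT replicate 3 of Cleo, so the Car side is unbalanced for it. The difference was called in 36.1% of genes, with 4220 more positive in Cleo (17.8%) and 4337 more negative (18.3%). With the mark as a term the counts were 4416 and 4554, and among unmarked libraries alone, with 1 control left in Car that is assumed to vary like the other groups, they were 4086 and 4260. Of the 3065 genes at least 2-fold higher in Cleo, 71.0% were also called higher in Car and 6.56% lower, against 29.5% and 35.3% of all genes tested. Of the 4528 at least 2-fold lower in Cleo, 81.4% were called lower in Car and 2.74% higher. Seen from Car, 79.6% of its 2327 genes at least 2-fold higher were called higher in Cleo. At least 2-fold changes in opposite directions were found in 125 genes higher in Cleo and lower in Car, and in 67 genes lower in Cleo and higher in Car.

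Photosystem genes fell further in Cleo. The difference was called negative in 31 of 42 photosystem genes, 12 of 23 Calvin cycle genes and 23 of 43 plastid ribosomal proteins, and called positive in 0, 2 and 0 of them. The medians for the photosystem genes were -2.45 in Cleo and -1.56 in Car, and those for plastid ribosomal proteins -1.60 and -1.06. For the Calvin cycle they were nearly equal, at -1.08 and -1.06, and for chlorophyll synthesis they were -1.06 in both. The rubisco small chain differed by -1.37 ± 0.20 (adjusted p = 3.8e-07), and oxygen-evolving enhancer 3-2 by -1.76 ± 0.15 (adjusted p = 8.4e-13). Dividing-cell markers differed the other way, 49 of 131 more positive in Cleo and 11 more negative, as did brassinosteroid genes, 8 of 17 and 0, and aquaporins, 14 of 31 and 3. For NCED the difference was 0.23 ± 0.18 (adjusted p = 0.36), and for NAC72 it was -0.16 ± 0.10 (adjusted p = 0.24).

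The aquaporins gave the clearest reversal. PIP2-2-like (LOC102608729) rose by 3.72 ± 0.09 in Cleo and fell by 2.96 on the log2 scale in Car, from 30.0 ± 1.10 to 3.86 ± 0.383 CPM (SD, n = 3). The second PIP2-2-like gene (LOC102609769) fell in Car from 56.3 ± 3.65 to 7.01 ± 0.760 CPM. Asparagine synthetase 1 (LOC102628580), which makes a nitrogen-rich transport amino acid, rose in Cleo from 18.8, 17.6 and 16.2 to 98.0, 93.3 and 88.9 CPM (2.41 ± 0.13) and in Car from 1.34 ± 0.340 to 379 ± 27.8 CPM (8.13 ± 0.18). Inositol oxygenase 1 (LOC102618274), which breaks down the solute myo-inositol, fell in Cleo from 726, 683 and 879 to 22.5, 25.9 and 33.9 CPM (-4.80 ± 0.11), whereas in Car it rose from 124 ± 6.23 to 195 ± 4.09 CPM (0.65 ± 0.09). Mitochondrial uncoupling protein 5 (LOC102626775), a carrier of the inner mitochondrial membrane, fell in Cleo from between 24.4 and 34.3 CPM to between 1.63 and 1.72 CPM and rose in Car from 6.20 ± 0.921 to 18.0 ± 0.732 CPM.

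**Figure D4:**
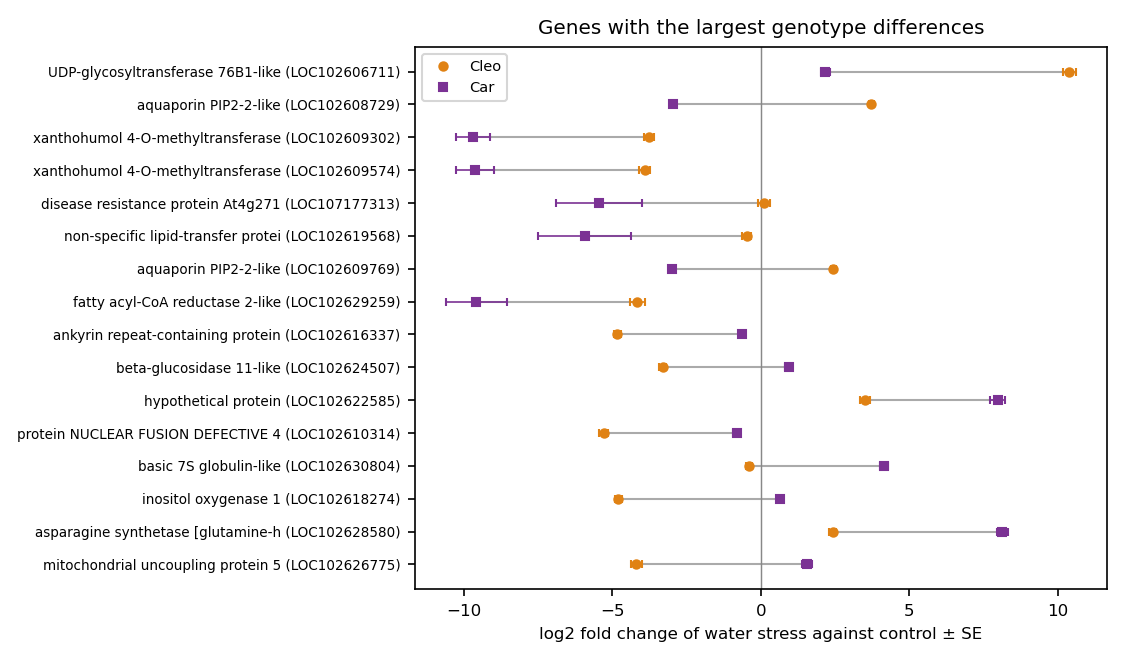
Fitted log2 fold change of water stress against control ± SE (x axis) in Cleo (circles) and Car (squares) for the 16 genes with the largest genotype differences under the naming rule (y axis). The PIP2-2-like genes lie on opposite sides of 0, and the 5 genes with Car values at or below -5.45 had 0 CPM in all Car libraries under water stress, so those Car values depend on the prior count of the fit.

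Water stress was set against the other single stresses in Cleo directly, without the control libraries. WS differed from HL in 66.1% of genes and from HS in 70.7%. NCED was at 8.44 ± 0.581 CPM under HL and 1.04 ± 0.297 CPM under HS (SD, n = 3), far below the 360 ± 38.5 CPM of WS, with differences of 5.41 ± 0.14 (adjusted p = 3.7e-30) and 8.40 ± 0.17 (adjusted p = 1.2e-33). NAC72 was at 93.7 ± 2.34 CPM under HL and 41.1 ± 0.505 CPM under HS, and STAY-GREEN at 36.6 ± 1.91 and 15.5 ± 1.15 CPM. The rubisco small chain stood at 16370 ± 929 CPM under HL and 9156 ± 729 CPM under HS, against 1057 ± 23.8 CPM under WS. PIP2-8 stood at 229 ± 13.9 and 262 ± 14.5 CPM in those stresses, against 2.50 ± 0.246 CPM under WS.

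For the combinations the levels are given side by side with WS, without a test of their differences. NCED was at 141 ± 7.43 CPM under WS+HL, 7.40 ± 0.630 CPM under WS+HS and 3.86 ± 0.450 CPM under WS+HL+HS. NAC72 was at 2991 ± 179 CPM under WS+HL and at 1212 ± 40.7 and 1044 ± 57.8 CPM in the combinations of WS with heat. LEA46-like was at 7349 ± 94.9 CPM under WS+HL, 2024 ± 14.3 CPM under WS+HS and 864 ± 117 CPM under WS+HL+HS. ADP-glucose pyrophosphorylase was at 17.9 ± 1.22, 74.8 ± 0.0771 and 57.6 ± 6.55 CPM in the same 3 combinations, against 866 ± 2.57 CPM in CT.

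**Figure D5:**
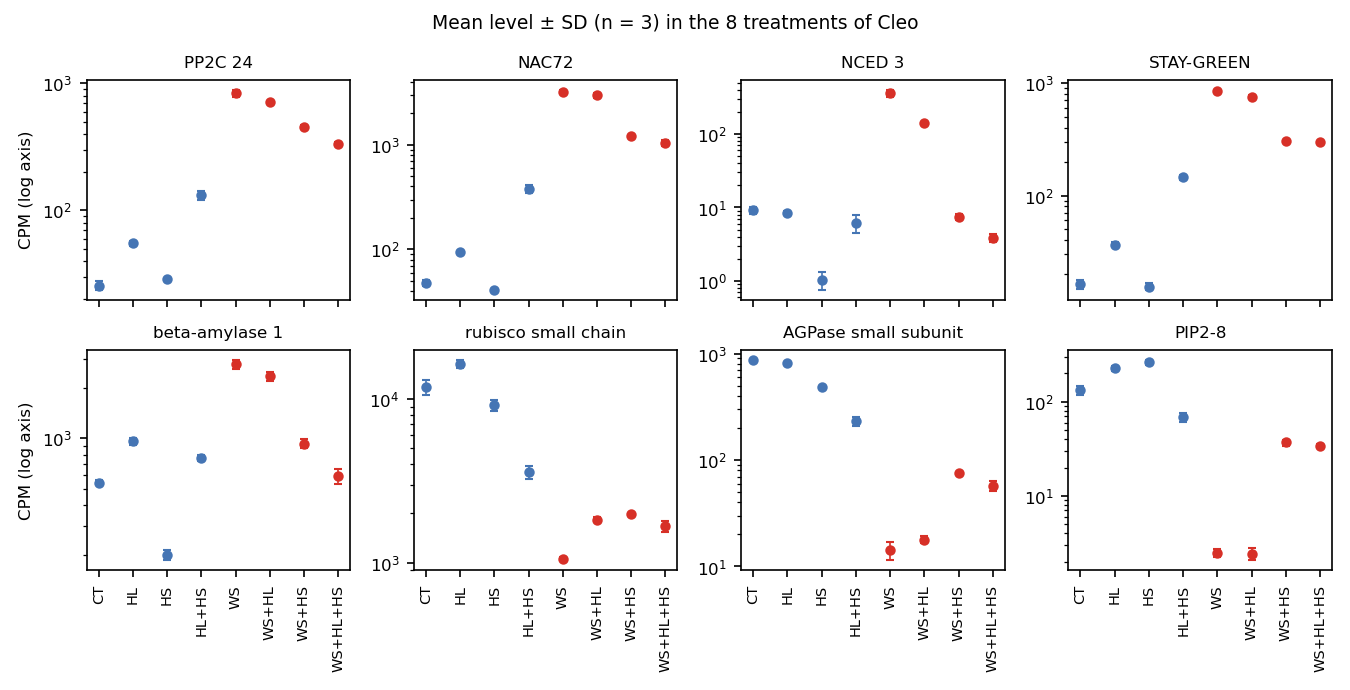
Mean normalised CPM ± SD (y axis, log scale, n = 3) of 8 genes in the 8 treatments of Cleo (x axis), red where the treatment includes water stress. NCED 3 is high in WS and WS+HL but at or below the control level in the combinations with heat, whereas the rubisco small chain and ADP-glucose pyrophosphorylase (AGPase) small subunit are lowest in WS.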

How the data were processed

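Leaf RNA-seq of 16 groups with 3 biological replicates each was used. The authors deposited whole-number read counts, FPKM and TPM per gene and library, per the file headers, for 30136 genes. Per the submitters' processing notes, the tools were StringTie 2.1.3b, HISAT2 2.1.0 and FastQC 0.11.7. Counts obtained through StringTie may be estimates. Strand setting and treatment of multi-mapping reads are not stated in the labels. Deposited FPKM were not used, and the deposited TPM only for levels and list sums.

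Counts of all 48 libraries were fitted in R 4.3.3 with edgeR 4.0.16 (filterByExpr, TMM, robust quasi-likelihood fit of 16 group means, 32 residual degrees of freedom). The common biological coefficient of variation was 11.2%, and p-values were adjusted by Benjamini-Hochberg over 23721 genes per comparison. The fit was run on simulated data in which few genes changed, balanced up and down. Such data cannot test the scaling under changes as broad as those seen here.

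Gene lists (70) were made from words in gene descriptions, so a gene can be placed wrongly. The words were corrected after descriptions, and in 4 lists after values, were seen. The comparison, its lists and the named genes were chosen with earlier results of these data known. Named genes are the 15 largest rises and falls among called, described genes whose groups did not overlap and whose mean log2 CPM reached 3, up to 4 called members per list with the lowest p (every member of lists of at most 12), the 8 largest rises and falls in TPM, the 8 largest genotype differences each way, and the 4 genes of highest CPM each way among those at most at 3 counts in the other group. Alternatives were DESeq2 1.42.0, its size factors, no filter, a replicate block, the compared libraries alone, each library left out, the column mark as a term, unmarked libraries alone, and leaving out ribosomal RNA and chloroplast genes.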

Additional observations from a re-analysis of the deposited data

Results flagged for a closer look

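The difference between the water stress responses of Cleo and Car was called by edgeR's quasi-likelihood test in 4220 genes that were more positive in Cleo and in 4337 that were more negative. The log2 difference, Cleo minus Car, was 8.21 for UDP-glycosyltransferase 76B1-like (LOC102606711), 6.68 and 5.44 for the PIP2-2-like aquaporins LOC102608729 and LOC102609769, and -5.72 for asparagine synthetase 1 (LOC102628580). It was -5.73 for mitochondrial uncoupling protein 5 (LOC102626775) and -5.45 for inositol oxygenase 1 (LOC102618274).

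It was -4.54 for basic 7S globulin-like (LOC102630804), -4.49 for NUCLEAR FUSION DEFECTIVE 4 (LOC102610314), -4.46 for a hypothetical protein (LOC102622585), -4.25 for beta-glucosidase 11-like (LOC102624507) and -4.19 for an ankyrin repeat protein (LOC102616337). Basic 7S globulin-like changed little in Cleo, from 16.2 to 19.0 CPM in CT to 12.8 to 14.1 CPM in WS, and rose in Car from 1.22 ± 0.0876 to 21.6 ± 2.32 CPM (SD, n = 3).

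In 5 genes the size of the difference depends on the prior count, because all Car libraries under water stress were at 0 CPM. These are a pair of xanthohumol 4-O-methyltransferase-like genes (LOC102609302, 5.91, and LOC102609574, 5.71), a disease resistance protein (LOC107177313, 5.55), a lipid-transfer protein (LOC102619568, 5.46) and fatty acyl-CoA reductase 2-like (LOC102629259, 5.42). LOC107177313 and LOC102619568 were near 0 in Car controls as well (0.102 and 0.144 CPM), while in Cleo they were at 15.03 and 28.3 CPM in CT.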

How the results depend on the processing

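The counts of called genes stayed within 1.5 times under all 124 combinations of a count with an alternative. DESeq2 called 15490 genes, the 6 libraries alone 14006 of 19979 tested, unmarked libraries alone 15341, and the fit with the mark as a term 15372. No gene called both here and under an alternative changed direction. Leaving out a library of the compared groups gave 7033 to 7175 genes higher, 7524 to 7746 lower, 3846 to 4249 more positive in Cleo and 4067 to 4230 more negative. With the replicate block 7406 genes were higher and 7900 lower. The labels do not say whether the replicate numbers pair the samples. Deviations of same-numbered CT and WS libraries correlated at 0.0091, 0.045 and 0.026, and 2 of 3 numbers matched best with their own. With 3 libraries per group these values cannot decide it. The median of WRKY factors, 0.16, ranged from -0.024 (without CT replicate 3) to 0.18 with 1 library left out, and was -0.011 in unmarked libraries; the cause was not tested. Of 980 medians of lists under an alternative, these 2 WRKY values reversed and 133 moved by at least the spread between replicates. Cell wall loosening was among the 133 (-0.30, and -0.035 without CT replicate 3). So were guard cell markers, whose spread was 0, so that even an unchanged median of 0 was counted as moved. For named genes, 42 single values lost and 21 gained the threshold, of 4993. Promoter motif shares were planned and not run. With 50397219 to 57471318 counts per library, genes at most at 3 counts in a group have folds only as bounds.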

Other observations

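Fat breakdown and mitochondrial bypass genes also moved. In the list for fatty acid beta-oxidation, the peroxisomal pathway that turns fatty acids into acetyl units, 26 of 49 genes were higher and 17 lower. The lipase SDP1 (LOC102609626), which releases fatty acids from oil bodies, rose from 39.1, 39.6 and 41.2 to 149, 153 and 152 CPM (1.92 ± 0.06). Peroxisomal 3-ketoacyl-CoA thiolase 2 (LOC102607600) rose from 56.3 to 66.1 CPM to 212 to 219 CPM (1.81 ± 0.07). Isocitrate lyase (LOC102615372), of the glyoxylate cycle that uses those acetyl units, rose from 2.02, 1.48 and 2.14 to 142, 98.8 and 117 CPM (5.99 ± 0.29). Among genes of alternative respiration 7 of 15 were higher and 6 lower. An external NAD(P)H dehydrogenase (LOC102629721) rose by 1.76 ± 0.08 and an internal one (LOC102622203) by 2.31. Mitochondrial uncoupling proteins 5 (LOC102626775) and 2 (LOC102627988) were lower (-4.19 and -2.41).

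Calcium signalling genes leaned up, 57 of 136 higher and 39 lower. A cyclic nucleotide-gated channel (LOC102621025) rose from 129, 136 and 133 to 640, 654 and 599 CPM (2.25 ± 0.06). A CBL-interacting kinase (LOC102625147) rose from 111, 114 and 141 to 566, 592 and 573 CPM in Cleo (2.24 ± 0.07) and fell by 0.63 on the log2 scale in Car, a difference of 2.87 ± 0.10 (adjusted p = 5.8e-25). Among inositol and ascorbate genes 14 of 26 were lower and 2 higher. Photoreceptor genes gave 8 higher and 11 lower of 20, with phytochrome C (LOC102618478) rising by 1.10 ± 0.05 and phototropin-2 (LOC102626333) falling by 1.18 on the log2 scale.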
